A study of Saccharomyces cerevisiae with 6 samples.

Results

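The genes described here encode 60S subunit assembly factors, the proteins that process the 25S and 5.8S rRNA and build the precursor of the large ribosomal subunit in the nucleolus of *Saccharomyces cerevisiae*. The 37 members were taken from a list of gene names by the function of their proteins, with earlier results of these data known, and all 37 were found among the 6389 annotated genes outside the rDNA that were counted. Native elongating transcript sequencing (NET-seq) maps the 3′ ends of RNA held by a polymerase that is pulled down through a tag. In this comparison, 3 *rpa12Δ* libraries were set against 3 WT libraries. Both strains carried HA-tagged Rpa135, the second largest subunit of RNA polymerase I (Pol I), and the *rpa12Δ* strain additionally lacked *RPA12*, which encodes the A12.2 subunit of Pol I. No other allele or agent is given as a difference between the strains, and both were collected in early log phase in YEPD, a rich glucose medium. The libraries are numbered 1 to 3 in each strain. The study calls its replicates biological, and p-values measure the spread between these libraries.

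Assembly of the 60S subunit proceeds on the rRNA while it is being made and trimmed. Factors bind in clusters, DEAD-box helicases and GTPases remodel the particle, and most factors leave before export to the cytoplasm. The genes for these factors belong to the ribosome biogenesis regulon, which budding yeast expresses strongly during rapid growth and switches down on starvation. They are transcribed by RNA polymerase II, whereas the pull-down in these libraries targeted Pol I. Whether their read ends came from RNA held by Pol I, by another polymerase or from free RNA in the extract was not tested.

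The libraries held 13588526 to 14634449 aligned reads in *rpa12Δ* and 4344302 to 6755222 in WT, of which 33.2 to 34.6% in *rpa12Δ* and 24.6 to 27.3% in WT lay outside the rDNA block of chromosome XII. The level of a gene is the number of read ends of its transcript's strand between the start and stop of the coding region, given in RPM, that is, per 1000000 reads outside the rDNA of the same library. The deleted gene *RPA12* had 0, 0 and 1 read ends in the *rpa12Δ* libraries, against 8, 9 and 3 in WT. The snoRNA genes took 62.2 to 66.2% of the reads outside the rDNA in *rpa12Δ* and 57.7 to 60.4% in WT, and the part of this difference in the levels below was not tested. Because a level is a share of a bulk library, fewer cells that transcribe a gene and less RNA per cell cannot be told apart.

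Read ends in the 60S assembly genes made up a larger share of the reads outside the rDNA in *rpa12Δ* than in WT. Their summed level was 1275, 1073 and 1021 RPM in the 3 *rpa12Δ* libraries, against 829, 835 and 909 RPM in the 3 WT libraries. Every *rpa12Δ* library therefore lay above every WT library, and *rpa12Δ* replicate 1 stood highest. The sums rest on 6198, 5014 and 4812 read ends in *rpa12Δ* and on 1378, 1193 and 1059 in WT, so the mutant values carry less counting error. As a share of the read ends in all protein-coding genes, the members took 0.553, 0.520 and 0.510% in *rpa12Δ* and 0.307, 0.334 and 0.357% in WT. Read ends on the strand opposite to the members were rare, at 34, 20 and 23 in *rpa12Δ* and 14, 5 and 7 in WT, which was 0.40 to 0.55% of all their read ends in *rpa12Δ* and 0.42 to 1.01% in WT.

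Single genes were tested with limma on log2(level + 1 RPM), with Benjamini-Hochberg adjustment over the 2902 genes whose mean level was at least 10 RPM. The test could be applied to 34 members. The other 3 (*RPF1*, *NIP7* and *RRP1*) lay below that level, and their values come from another limma fit that took in all 6260 genes with reads. Of the 34 members tested, 8 were higher in *rpa12Δ* at an adjusted p under 0.05 and 0 were lower, where over all genes tested 5.38% were called higher and 25.7% lower. At an unadjusted p under 0.05, 15 members were higher and 1 was lower, beside 8.2% and 33.5% of all genes tested, and limma-voom on the same counts called 5 higher and 0 lower, beside 4.65% and 25%. The median log2 difference, *rpa12Δ* minus WT, was 0.40 over the 34 members and -0.26 over all genes tested, and it was above 0 for 30 of the 34 members (33 when scaled to the median of ratios, with *SSF1*, *RRS1* and *NUG1* then above 0) and for 844 of the 2902 genes. In the fit over all genes with reads, 4 of the 37 members were called higher (*NOP7*, *RRP1*, *NOG1* and *NOP4*), beside 2.76% of all genes, and 0 were called lower, beside 13.4%.

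The number of calls depended on the scaling and on single libraries. Scaled to the median of ratios over the tested genes, which moves the median gene to a log2 difference of 0.00, 25 of 34 members were higher and 0 lower, with a median of 0.66, beside 16.5% of all genes called higher and 17.5% lower. *RRP15*, *NSA1* and *NOP16*, counted among the 25, averaged 7.79, 9.83 and 9.69 RPM in WT. These lie below the filter of 10 RPM, which the 3 passed through the *rpa12Δ* libraries. Leaving out a library gave 3 members called higher without WT replicate 1, 5 without WT replicate 2 and 4 without WT replicate 3. The count was 2 without *rpa12Δ* replicate 2, 5 without *rpa12Δ* replicate 3 and 6 without *rpa12Δ* replicate 1. Over all 2902 genes tested, 162 were called higher without WT replicate 1 and 124 without WT replicate 2, against 156 with all libraries. The range over all genes with 1 library left out is given further below. *NOP7* and *NOP4* kept their call in all 21 alternative settings. At a mean of at least 50 RPM neither was tested, and their values there are those of the fit over all genes with reads. Of the other called genes, *RLP7* lost its call without WT replicate 1 or *rpa12Δ* replicate 2 or 3, *CIC1* without these or WT replicate 3, and *NOG1* without WT replicate 2 or 3 or *rpa12Δ* replicate 2. *NOC2* lost it without WT replicate 1 or 3 or *rpa12Δ* replicate 1 or 2, *NOP12* without any library but *rpa12Δ* replicate 1, *RRP1* without any but WT replicate 1, and *BRX1* without any of the 6. With the most occupied position of each gene left out, *NOC2* (log2 difference 0.49, adjusted p = 0.0542) and *RRP1* (1.22, adjusted p = 0.0822) also lost their call, while *DBP3*, *MAK21* and *NSA2* gained one. The log2 difference of each stayed above 0 throughout.

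The 3 libraries of each strain did not overlap for 22 members. In 20 of the 37 the lowest *rpa12Δ* library lay above the highest WT library, and in 2 (*RRP14* and *NUG1*) the highest *rpa12Δ* library lay below the lowest WT library, where the shares over all genes with reads were 7.38% above and 24.7% below. With 3 libraries per strain, an exact two-sided permutation test of a single gene cannot give a p below 0.1. The plot of levels shows each member in every library.

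**Figure D1:**
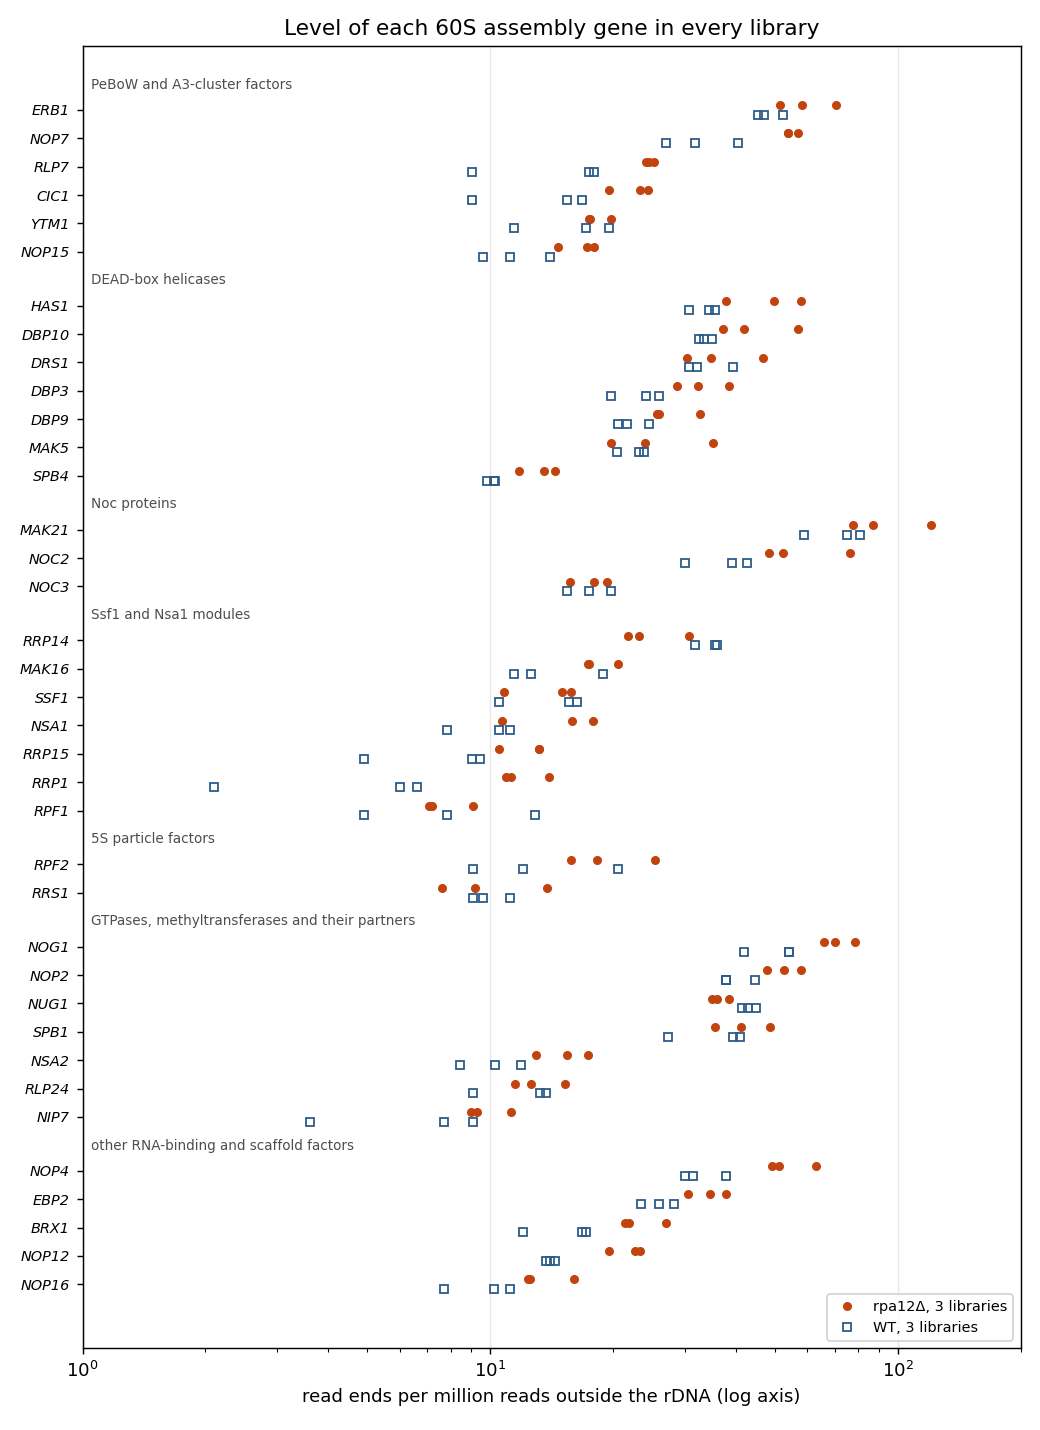
Level of each of the 37 genes in every library, in RPM (read ends per 1000000 reads outside the rDNA) on a log axis, with filled circles for the 3 *rpa12Δ* libraries and open squares for the 3 WT libraries. Genes are grouped by the role of their protein. For 20 genes all 3 circles lie to the right of all 3 squares, and for *RRP14* and *NUG1* they lie to the left.

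The first group holds the factors of the PeBoW complex and the A3 cluster, which act where the first internal transcribed spacer is trimmed away and at the foot of the second. The median log2 difference of these 6 genes was 0.60. Of them, 3 were called higher (*NOP7*, *RLP7* and *CIC1*) and 0 lower, beside 5.38% and 25.7% of all genes tested. Scaled to the median of ratios, 5 were called higher, beside 16.5%. *NOP7* (YGR103W, chrVII:695417-697234, plus strand of the R64 build) encodes the core subunit of PeBoW. Its level was 57.0, 53.7 and 53.7 RPM in *rpa12Δ*, against 27.1, 40.6 and 31.8 RPM in WT. The lowest mutant library thus exceeded the highest WT library, and the log2 difference was 0.73 (SE 0.18, limma adjusted p = 0.00711). *RLP7* (YNL002C, chrXIV:626174-627142, minus strand) encodes a relative of ribosomal protein L7 that binds at the second internal transcribed spacer. It had 24.5, 24.2 and 25.3 RPM in *rpa12Δ* and 9.02, 17.5 and 18.02 RPM in WT, a log2 difference of 0.75 (SE 0.25, limma adjusted p = 0.0304). The mutant libraries were nearly equal, while WT replicate 1 was low, and without that library the difference was 0.45 (adjusted p = 0.153).

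*CIC1* (YHR052W, chrVIII:210848-211978, plus strand), whose protein also sits on the second spacer, had 19.6, 23.3 and 24.4 RPM in *rpa12Δ* and 9.02, 16.8 and 15.4 RPM in WT. The groups did not overlap and the log2 difference was 0.70 (SE 0.24, limma adjusted p = 0.0378), again with WT replicate 1 the lowest library, and it was 0.45 (adjusted p = 0.180) without it. *ERB1* (YMR049C, chrXIII:368094-370517, minus strand), which encodes the scaffold of PeBoW, had the most read ends of the group, with 22.3 RPM per kb on average, and was at 70.6, 58.2 and 51.4 RPM in *rpa12Δ* and 46.9, 45.5 and 52.4 RPM in WT. *rpa12Δ* replicate 3 lay within the WT range, and the log2 difference, 0.30 (SE 0.17), missed the threshold (adjusted p = 0.205). *NOP15*, an RNA-binding protein of the second spacer, had 17.3, 17.97 and 14.6 RPM in *rpa12Δ* and 9.62, 14.0 and 11.2 RPM in WT, without overlap and with an adjusted p of 0.115. The remaining PeBoW subunit gene, *YTM1*, averaged 18.3 ± 1.28 RPM in *rpa12Δ* and 16.1 ± 4.20 RPM in WT (SD, n = 3 each), and the 2 groups overlapped.

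The DEAD-box helicases use ATP to unwind or rearrange RNA on the growing particle. None of these 7 genes passed the test in either direction, beside 5.38% higher and 25.7% lower of all genes tested. At an unadjusted p under 0.05, 2 were higher, beside 8.2%, and limma-voom called 0, beside 4.65% higher and 25% lower. Scaled to the median of ratios, 5 of the 7 were called higher (*HAS1*, *DBP3*, *DBP10*, *DBP9* and *SPB4*), beside 16.5% of all genes tested. The log2 differences of all 7 were nevertheless above 0, between 0.11 and 0.50, with a median of 0.36. In 5 of 7 every *rpa12Δ* library lay above every WT library, beside 10.1% of all genes tested. *HAS1* (YMR290C, chrXIII:850074-851591, minus strand), a helicase that serves both subunits, had 58.0, 49.6 and 38.0 RPM in *rpa12Δ*, against 30.7, 35.7 and 34.3 RPM in WT. The lowest mutant library was close to the highest WT library, and the log2 difference was 0.50 (SE 0.19, limma adjusted p = 0.0573). *DBP3*, whose helicase promotes cleavage at site A3, had 38.5, 32.3 and 28.7 RPM in *rpa12Δ* and 24.1, 25.9 and 19.7 RPM in WT, a log2 difference of 0.49 (adjusted p = 0.0682).

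*DBP10* had 56.8, 41.9 and 37.4 RPM in *rpa12Δ* and 32.5, 35.003 and 33.5 RPM in WT. Here the WT libraries lay close together and the mutant libraries were spread widely, with replicate 1 the highest (log2 difference 0.40, adjusted p = 0.125). *DBP9* averaged 28.1 ± 4.01 RPM in *rpa12Δ* and 22.3 ± 2.02 RPM in WT, and *SPB4*, which had the lowest level per kb of all 37 genes, 13.3 ± 1.35 RPM in *rpa12Δ* and 10.1 ± 0.27 RPM in WT. Neither pair overlapped, and the adjusted p was 0.226 for *DBP9* and 0.257 for *SPB4*. *DRS1* averaged 37.3 ± 8.45 RPM in *rpa12Δ* and 34.1 ± 4.70 RPM in WT, and *MAK5* 26.3 ± 7.99 RPM in *rpa12Δ* and 22.5 ± 1.78 RPM in WT. Without *rpa12Δ* replicate 1 the log2 difference was -0.06 for *DRS1* and -0.04 for *MAK5*.

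The Noc proteins are HEAT-repeat proteins that act in pairs on early particles. Of their 3 genes 0 were called lower and 1 was called higher (2 when scaled to the median of ratios), beside 5.38% of all genes tested (16.5% when scaled). That gene was *NOC2* (YOR206W, chrXV:727512-729644, plus strand), the partner common to both pairs. It had 76.1, 52.2 and 48.2 RPM in *rpa12Δ*, against 39.1, 42.7 and 30.0 RPM in WT, a log2 difference of 0.63 (SE 0.21, limma adjusted p = 0.0287). The groups did not overlap, though *rpa12Δ* replicate 1 stood well above the other mutant libraries, and without it the difference was 0.43 (adjusted p = 0.0681). *MAK21* (YDR060W, chrIV:570649-573726, plus strand), also called *NOC1*, had the most read ends of all members, with 27.1 RPM per kb on average, and was at 120.4, 87.1 and 77.5 RPM in *rpa12Δ* and 75.2, 58.8 and 80.7 RPM in WT. The groups overlapped at *rpa12Δ* replicate 3, and the log2 difference was 0.39 (SE 0.19, adjusted p = 0.130). *NOC3*, whose protein also has a part in DNA replication, averaged 17.7 ± 1.84 RPM in *rpa12Δ* and 17.5 ± 2.17 RPM in WT, a log2 difference of 0.01 with a 95% interval from -0.43 to 0.46.

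The Ssf1 and Nsa1 modules bind different domains of the 25S rRNA in the early nucleolar particle. Among the 5 of these 7 genes that were tested 0 were called in either direction, beside 5.38% higher and 25.7% lower of all genes tested. At an unadjusted p under 0.05, 1 was higher and 1 lower, beside 8.2% and 33.5%. By limma-voom 0 were called, beside 4.65% and 25%. Scaled to the median of ratios, *RRP15*, *NSA1* and *MAK16* were called higher among the 5 tested, beside 16.5% of all genes tested. *RRP1* was not in that test, and under this scaling it had a limma adjusted p of 0.00256 in the fit over all genes with reads. *RRP15* and *NSA1* averaged 7.79 and 9.83 RPM in WT, below the filter of 10 RPM, and passed it through the *rpa12Δ* libraries. This group held both the largest positive and the largest negative difference of all members. *RRP1* (YDR087C, chrIV:617470-618306, minus strand), a factor of the Nsa1 module, had only 10.9, 13.9 and 11.2 RPM in *rpa12Δ*, against 6.62, 2.10 and 6.01 RPM in WT. These levels rest on few reads, since 3 reads correspond to 0.617 to 0.642 RPM in *rpa12Δ* and 1.80 to 2.57 RPM in WT. The log2 difference was 1.24 (SE 0.35, adjusted p = 0.0271 in the fit over all genes), and without WT replicate 2 it was 0.83 (adjusted p = 0.0660).

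*RRP14* (YKL082C, chrXI:281025-282329, minus strand), whose protein works with Ssf1 and Rrp15, had 30.7, 21.8 and 23.1 RPM in *rpa12Δ*, against 36.1, 35.7 and 31.8 RPM in WT. All mutant libraries lay below all WT libraries, and the log2 difference was -0.45 (SE 0.19, limma adjusted p = 0.0875). With the most occupied position of each gene left out, the difference was -0.20 (adjusted p = 0.419). Without *rpa12Δ* replicate 1 it was -0.60 (adjusted p = 0.0131). With each distinct read interval counted only once, the median of all genes tested was 0.17 over 5270 genes, against -0.26 over 2902 genes as reported. The difference of *RRP14* was then 0.25 (adjusted p = 0.275). Its partner gene *RRP15* lay above WT in the same libraries, with 13.2, 10.5 and 13.2 RPM in *rpa12Δ* and 9.02, 4.90 and 9.44 RPM in WT (log2 difference 0.63, adjusted p = 0.101). *SSF1*, a Brix-domain protein gene with the close paralog *SSF2*, averaged 13.9 ± 2.69 RPM in *rpa12Δ* and 14.1 ± 3.18 RPM in WT. Of its read ends 12.4% had mapping quality 0, against at most 1.06% in any other member, so its level is less certain.

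The other genes of the Nsa1 module overlapped between strains. *NSA1* averaged 14.8 ± 3.72 RPM in *rpa12Δ* and 9.83 ± 1.77 RPM in WT, and *MAK16* 18.5 ± 1.78 RPM in *rpa12Δ* and 14.3 ± 4.01 RPM in WT. *RPF1*, another Brix-domain protein gene, averaged 7.78 ± 1.11 RPM in *rpa12Δ* and 8.53 ± 4.03 RPM in WT. The 2 genes for the factors that help to seat the 5S particle on the 60S precursor also overlapped. Of these, 0 of 2 were called, with 0 at an unadjusted p under 0.05 and 0 by limma-voom. Scaled to the median of ratios, 1 (*RPF2*) was higher. Over all genes tested the shares higher by these measures, in the same order, were 5.38, 8.2, 4.65 and 16.5%. *RPF2* (YKR081C, chrXI:591506-592540, minus strand) had 25.3, 15.8 and 18.3 RPM in *rpa12Δ* and 12.03, 9.10 and 20.6 RPM in WT, a log2 difference of 0.53 (SE 0.28, adjusted p = 0.165). The level of WT replicate 3 lay among the mutant libraries, and the other WT libraries lay below them. *RRS1* (YOR294W, chrXV:868340-868951, plus strand), which encodes the partner of Rpf2, was the member closest to no difference, with 7.61, 9.20 and 13.8 RPM in *rpa12Δ* and 9.62, 9.10 and 11.2 RPM in WT. Its 95% interval ran from -0.58 to 0.57 on the log2 scale.

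The next group holds GTPases, rRNA methyltransferases and proteins that join with them. Of the 6 tested, 1 was called higher and 0 lower, and 3 were higher and 0 lower at an unadjusted p under 0.05, with 1 higher by limma-voom and 4 when scaled to the median of ratios. Over all genes tested the shares higher by these 4 measures were 5.38, 8.2, 4.65 and 16.5%. *NOG1* (YPL093W, chrXVI:370978-372921, plus strand), a nucleolar GTPase gene, had the highest level per kb of all 37 members, at 31.3 RPM per kb. It had 78.6, 70.0 and 65.8 RPM in *rpa12Δ*, against 54.1, 42.0 and 54.1 RPM in WT, without overlap (log2 difference 0.51, SE 0.17, limma adjusted p = 0.0326). *NOP2*, which encodes a 25S rRNA methyltransferase, had 57.8, 47.7 and 52.6 RPM in *rpa12Δ* and 37.9, 37.8 and 44.6 RPM in WT, with an adjusted p of 0.0996. *NSA2* had 13.0, 15.4 and 17.4 RPM in *rpa12Δ* and 8.42, 11.9 and 10.3 RPM in WT, with an adjusted p of 0.0987. Both genes had their libraries apart by strain, and neither passed the test.

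*NUG1* (YER006W, chrV:162723-164285, plus strand), which encodes another GTPase, was the second member below WT in all libraries, with 38.5, 35.9 and 35.02 RPM in *rpa12Δ* and 41.5, 44.8 and 42.9 RPM in WT. The log2 difference was -0.23 (SE 0.17, limma adjusted p = 0.304), and it was 0.03 when scaled to the median of ratios. *SPB1*, the gene of a methyltransferase, averaged 41.8 ± 6.47 RPM in *rpa12Δ* and 35.9 ± 7.47 RPM in WT. *RLP24*, which encodes a placeholder related to ribosomal protein L24, averaged 13.1 ± 1.93 RPM in *rpa12Δ* and 12.02 ± 2.54 RPM in WT, and *NIP7* 9.83 ± 1.24 RPM in *rpa12Δ* and 6.81 ± 2.86 RPM in WT. For these 3 genes the strains overlapped.

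The remaining 5 genes encode other RNA-binding and scaffold factors. All 5 had every *rpa12Δ* library above every WT library, beside 10.1% of all genes tested, and their median log2 difference was 0.59. Of the 5, 3 were called higher, beside 5.38% of all genes tested, and 5 when scaled to the median of ratios, beside 16.5%. *NOP4* (YPL043W, chrXVI:469939-471996, plus strand), which encodes a protein with several RNA recognition motifs, had 63.0, 51.1 and 49.0 RPM in *rpa12Δ* and 37.9, 31.5 and 30.0 RPM in WT (log2 difference 0.70, SE 0.18, limma adjusted p = 0.00812). *NOP12* (YOL041C, chrXV:251267-252646, minus strand), a smaller RNA-binding protein gene, had 22.6, 23.3 and 19.5 RPM in *rpa12Δ* and 14.4, 14.0 and 13.7 RPM in WT. The WT libraries were within a narrow range well below the mutant ones, and the log2 difference was 0.60 (SE 0.20, limma adjusted p = 0.0343). *BRX1* (YOL077C, chrXV:185848-186723, minus strand), a further Brix-domain protein gene, had 27.0, 21.4 and 21.9 RPM in *rpa12Δ* and 12.03, 16.8 and 17.2 RPM in WT.

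*BRX1* was the called member nearest to the threshold, with a log2 difference of 0.59 (SE 0.22, limma adjusted p = 0.0496). It kept its call in 7 of 21 alternative settings. With all libraries thinned to 1165143 reads, by a single random draw, its difference was 0.10 (adjusted p = 0.826). *EBP2*, the yeast relative of a human EBNA1-binding protein gene, had 37.9, 34.7 and 30.6 RPM in *rpa12Δ* and 23.5, 25.9 and 28.3 RPM in WT, a log2 difference of 0.39 (adjusted p = 0.118). *NOP16* had 16.1, 12.4 and 12.5 RPM in *rpa12Δ* and 10.2, 7.70 and 11.2 RPM in WT, a log2 difference of 0.46 (adjusted p = 0.171). The plot of differences sets all members beside the median of all genes tested.

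**Figure D2:**
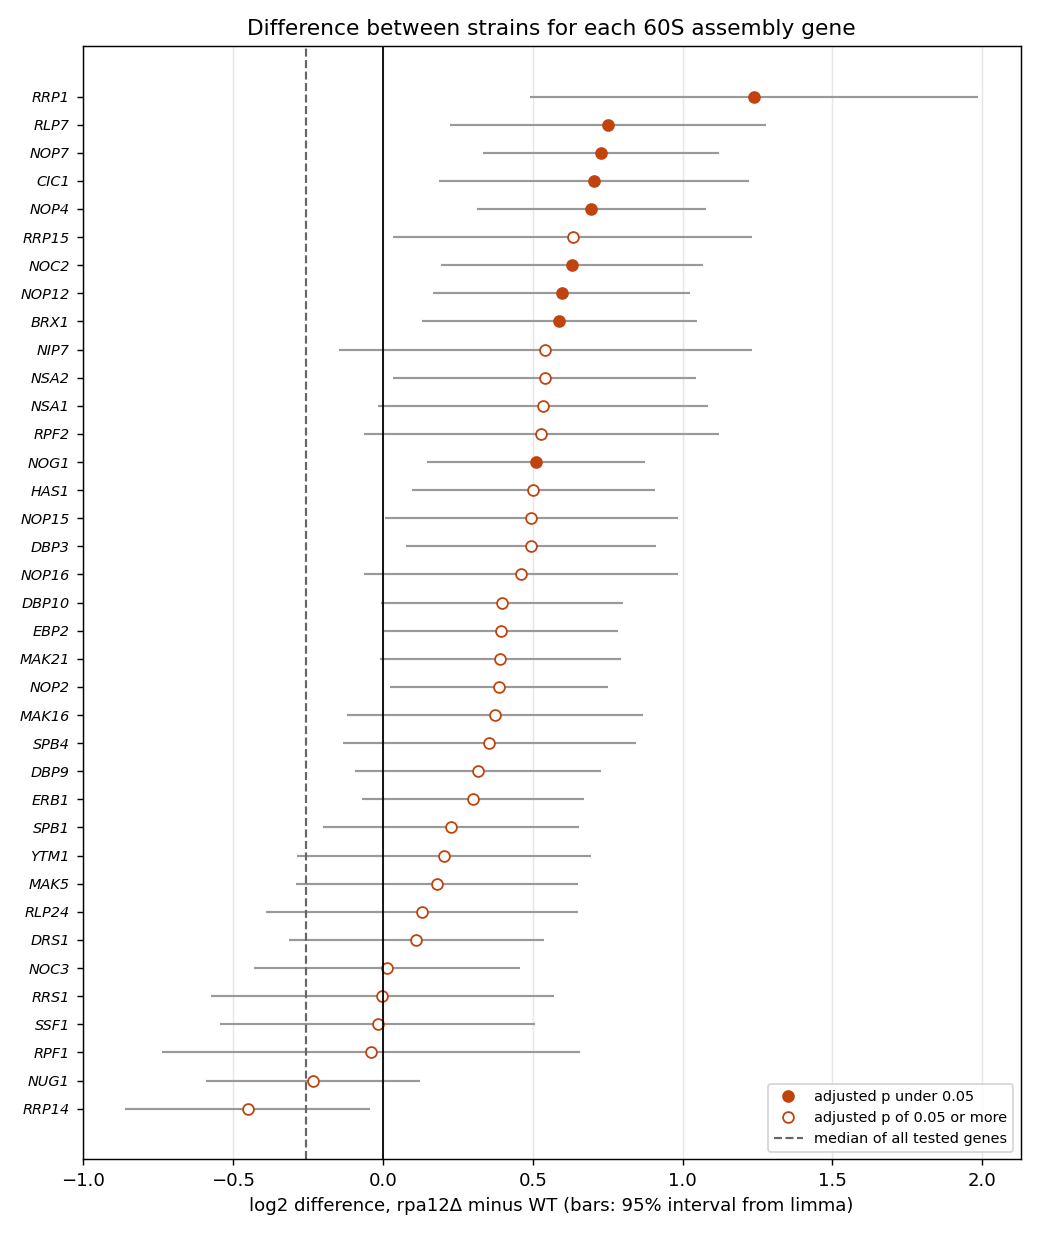
Log2 difference, *rpa12Δ* minus WT, of each of the 37 genes, with bars for the 95% interval from limma and filled points for an adjusted p under 0.05. *RPF1*, *NIP7* and *RRP1* are from the fit with all genes that had reads. Of the 37 points 32 lie to the right of 0, and the dashed line marks the median of all genes tested at -0.26.

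Related gene lists gave the frame for these values. Over all genes tested, 5.38% were called higher and 25.7% lower, or 16.5% and 17.5% when scaled to the median of ratios. At an unadjusted p under 0.05 the shares were 8.2% and 33.5%, and by limma-voom 4.65% and 25%. A further list of 48 factors of the 60S subunit that are not members, 31 of them tested, had a median log2 difference of 0.27, with 4 called higher and 0 lower (8 and 0 at an unadjusted p under 0.05, 3 and 0 by limma-voom). Scaled to the median of ratios, 19 of the 31 were called higher and 0 lower, with a median of 0.54. Among the 4 called, the largest difference was that of *PUF6*, which encodes an RNA-binding protein of the Pumilio family and had 44.0, 35.7 and 39.1 RPM in *rpa12Δ*, against 26.5, 19.6 and 23.2 RPM in WT (log2 difference 0.76, limma adjusted p = 0.00642). *SDA1* followed at 0.74 (adjusted p = 0.00871), then *MRT4*, which encodes a relative of stalk protein P0, at 0.64 (adjusted p = 0.0355), and *MTR4*, the helicase of the nuclear exosome, at 0.63 (adjusted p = 0.00872). *TMA16*, below the level of the test, had 5.56, 5.56 and 5.09 RPM in *rpa12Δ* and 2.41, 2.80 and 0.858 RPM in WT, the last being a single read, with a log2 difference of 1.15 (adjusted p = 0.0335) in the fit over all genes. The 40 tested genes of the small subunit processome, which assembles the other ribosomal subunit, had a median of 0.22, with 1 called higher and 0 lower (5 and 1 at an unadjusted p under 0.05, 1 and 0 by limma-voom). Scaled to the median of ratios, 24 of the 40 were called higher and 0 lower, with a median of 0.49, beside 25 of the 34 members.

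The genes for ribosomal proteins of the large subunit, the clients of these factors, stood on the other side of 0, as did the median of all genes tested. Of 81 tested, 0 were called higher and 8 lower (9.88%), beside 5.38% and 25.7% of all genes tested. At an unadjusted p under 0.05 the counts were 0 and 15, beside 8.2% and 33.5% of all genes tested, and by limma-voom 0 and 9, beside 4.65% and 25%. The median was -0.19, against 0.40 for the 60S assembly genes and -0.26 over all genes tested. Scaled to the median of ratios, 4 of the ribosomal protein genes were called higher and 3 lower, beside 16.5% and 17.5% of all genes tested. Their median was then 0.08, so the sign of this list depends on the scaling. The lists were not tested against each other.

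**Figure D3:**
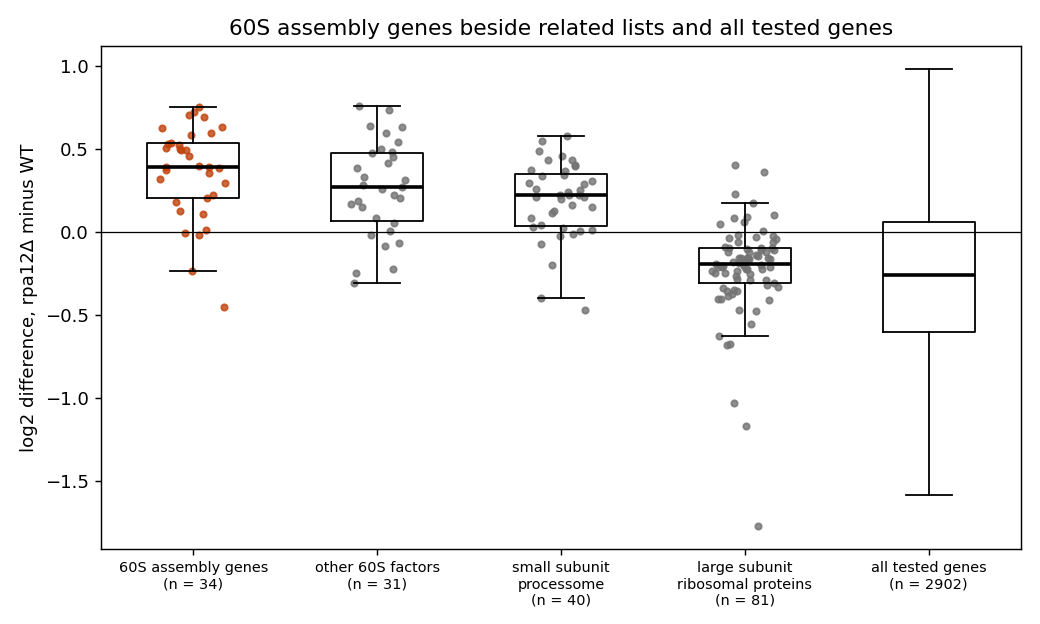
Log2 difference, *rpa12Δ* minus WT, of each tested gene of 5 sets, with a line at the median of each. The 60S assembly genes had a median of 0.40, other 60S factors 0.27, small subunit processome genes 0.22, large subunit ribosomal protein genes -0.19 and all genes tested -0.26.

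The position of read ends along the coding regions was a measure the choice of genes did not involve. Each coding region was split at its midpoint, and the log2 ratio of the 5′ part to the 3′ part was tested over the same 2902 genes. None of the 34 members changed in either direction by limma at an adjusted p under 0.05 (3 of 34 at an unadjusted p under 0.05, beside 10.1% of all genes), where 0.551% of all genes were called higher and 0.345% lower. Over the summed members, the 5′ part took 48.3 to 50.0% of the read ends in *rpa12Δ* and 47.9 to 49.9% in WT. The median difference in the log2 ratio was 0.01 over the members and 0.05 over all genes tested. The share of members at an unadjusted p under 0.05 was thus near that of all genes. These 3 were *RRS1*, with a difference of 0.99 (adjusted p = 0.361), *NOC3*, with 0.78 (adjusted p = 0.395), and *RRP14*, with -0.76 (adjusted p = 0.424).

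Within 10 equal bins of the coding region, with the most occupied position of each gene left out, the read ends were spread almost evenly. The bin at the start held 7.73, 9.23 and 9.35% of a gene's read ends in the *rpa12Δ* libraries and 6.84, 8.09 and 7.76% in the WT libraries, as means over the 37 members. The bin at the stop held 12.1, 10.4 and 10.0% in *rpa12Δ* and 9.20, 10.8 and 9.86% in WT. The strains overlapped in both bins. They did not overlap in bins 2 and 4, counted from the start, which went in opposite directions. Bin 2 held 9.57 to 10.4% in *rpa12Δ* and 8.37 to 9.23% in WT. Bin 4 held 9.74 to 10.4% in *rpa12Δ* and 10.82 to 11.8% in WT. In the remaining bins the strains overlapped, and differences in single bins were not tested.

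**Figure D4:**
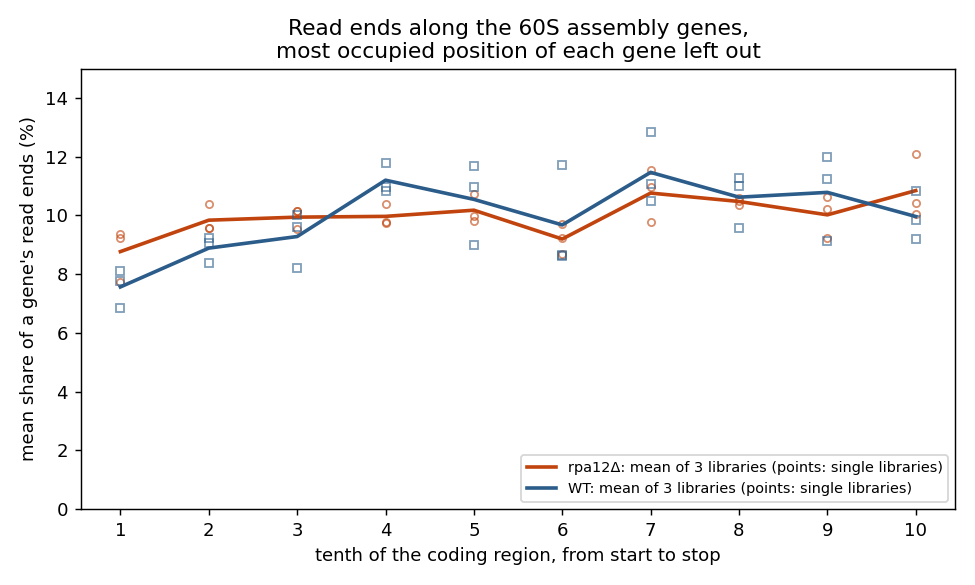
Mean share of a gene's read ends in each of 10 equal bins from the start to the stop of the coding region, averaged over the 37 genes with the most occupied position of each left out. Lines are means of the 3 *rpa12Δ* and the 3 WT libraries and points are single libraries. The bin at the start held 7.73 to 9.35% in *rpa12Δ* and 6.84 to 8.09% in WT.

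Outside the coding regions, read ends were compared in the 300 nt on each side, over the members that have no other gene on the same strand there. Before the start, the 32 such members together had 23.8 to 34.4 RPM in *rpa12Δ* and 21.7 to 36.7 RPM in WT. After the stop, the 33 such members together had 151, 114 and 104 RPM in *rpa12Δ*, against 72.8, 86.1 and 77.2 RPM in WT. The mutant libraries were higher on this side of the genes, as they were within the coding regions, and overlapped with WT on the other side.

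In 8 members a single position held more than 10% of the gene's read ends, averaged over the libraries. These were *NOC2*, *HAS1*, *NOP4*, *ERB1*, *RRP14*, *NSA1*, *YTM1* and *MAK21*, while the most occupied position of the other 29 held 0.97 to 8.80%, with a median of 2.53%. The cut of 10% was chosen after the values were seen, and these shares are given as a description. In *NOC2* the position lay 1085 nt into the coding region (chrXV:728596) and held 30.8, 23.8 and 17.2% of the gene's read ends in *rpa12Δ* and 27.7, 1.64 and 17.1% in WT. In *ERB1* it lay 988 nt from the start and held 31.8, 23.5 and 12.8% in *rpa12Δ* and 19.2, 9.23 and 9.84% in WT. In *MAK21* it lay 464 nt from the start and held 17.6, 12.3 and 7.67% in *rpa12Δ* and 15.2, 10.7 and 15.96% in WT.

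*rpa12Δ* replicate 1 had the highest share of the 3 mutant libraries in all 8 genes. The reads at these positions were not copies of 1 interval, since the 114, 58 and 39 read ends of *NOC2* in *rpa12Δ* came from 33, 25 and 21 distinct intervals, and the 18, 1 and 6 in WT from 12, 1 and 4. *RRP14* was the only one of the 8 in which every WT library had a higher share than every *rpa12Δ* library. Its position, 358 nt into the coding region (chrXI:281972), held 12.8, 7.84 and 4.59% in *rpa12Δ* and 21.7, 27.5 and 21.6% in WT, on 19, 8 and 5 read ends in *rpa12Δ* and 13, 14 and 8 in WT. With the most occupied position of every gene left out, the summed level of the 37 members was 1138, 991 and 982 RPM in *rpa12Δ*, against 752, 781 and 837 RPM in WT, and the strains still did not overlap.

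**Figure D5:**
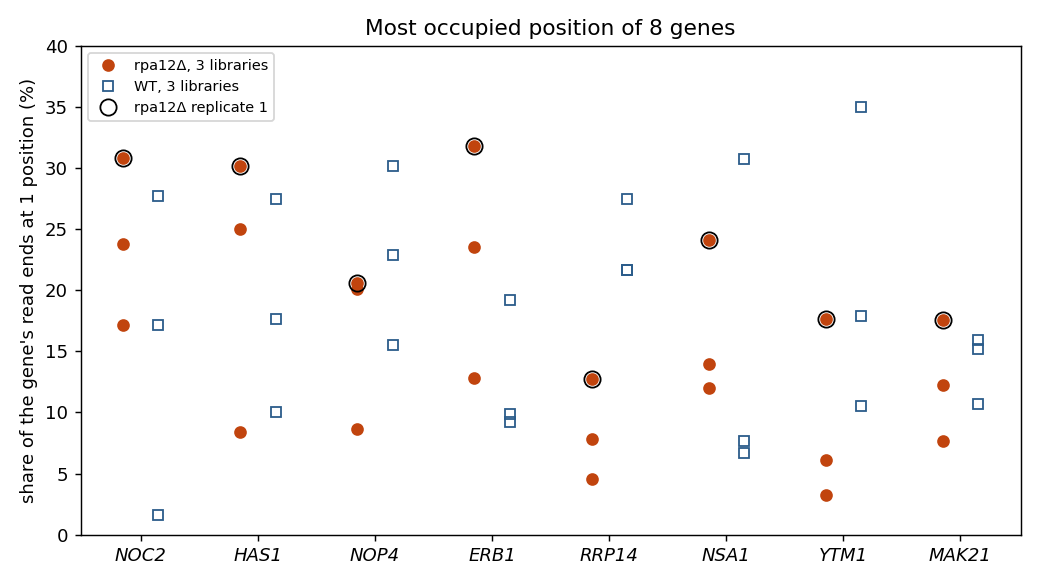
Share of a gene's read ends at its most occupied position, in percent, for the 8 genes in which that position held more than 10% on average, with filled circles for the 3 *rpa12Δ* libraries and open squares for the 3 WT libraries. Black rings mark *rpa12Δ* replicate 1, the highest mutant library in all 8 genes. In *RRP14* the 3 WT shares, 21.6 to 27.5%, lie above the 3 *rpa12Δ* shares, 4.59 to 12.8%.

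The order of the mutant libraries differed between long and short members. In all 17 members with a coding region of over 1500 nt, *rpa12Δ* replicate 1 had the highest level of the 3 mutant libraries, and in the 20 shorter members it did so in 8. Over the longer members its log2 level exceeded the mean of the other 2 mutant libraries by a median of 0.33, and over the shorter members by 0.08. Over all tested protein-coding genes the same medians were 0.42 for coding regions of over 1500 nt and 0.14 for shorter ones, so this was no property of the 60S assembly genes alone. The median log2 difference between the strains was 0.39 over the longer and 0.51 over the shorter members. The length of 1500 nt was chosen after the values were seen. Without *rpa12Δ* replicate 1 the median over all 34 members tested, long and short, was 0.33, against -0.34 over all genes tested. The part of this library in the differences of the longer genes alone was not tested.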

How the data were processed

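NET-seq libraries of 3 *rpa12Δ* and 3 WT samples were used. The authors deposited the aligned reads line by line, with coordinates and strand, and the only deposited measurement is a score, the mapping quality from 0 to 60. Per the submitters' processing notes the tools were bcl2fastq 2.18.0.012, Trim Galore 0.4.1, BWA 0.6 and SAMtools 1.3.1. The genome build is not given in the sources used here. Gene coordinates are those of R64 from RefSeq, and read positions were taken to be on the same build.

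Here, with Python 3.11.15, numpy 2.4.6 and pandas 2.3.3, the 5′ end of each read was counted for the gene on the opposite strand of the line, which is the 3′ end of the RNA. Reads at positions 451418 to 490526 of chromosome XII (the rDNA) were left out. Of the other reads, 91.5 to 93.5% lay in the 6389 genes counted. A level in RPM is a count per 1000000 reads outside the rDNA, which numbered 4674055 to 4859327 in *rpa12Δ* and 1165143 to 1662542 in WT. Identical reads were kept, since no molecular identifiers are given. Differences were fitted with limma 3.58.1 in R 4.3.3 (lmFit, eBayes with a variance trend) on log2(level + 1), without covariates, at an adjusted p of 0.05. The fold scale therefore understates changes of low genes. The fits were tested on simulated data. Figures were drawn with matplotlib 3.10.9.

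Members, roles and lists were chosen with earlier results of these data known. Every member is named, and values per library are given for the gene with the most read ends in each role, the called genes, and the gene closest to no difference. Other genes given with such values, and *MTR4* and *TMA16* outside the list, were named after their values were seen. Promoter motifs and sequences were not analysed here. The replicate numbers were not used to pair the libraries in the reported fit. Alternatives changed the pseudocount, filter, denominator, reads, depth, positions, test, block and libraries.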

Additional observations from a re-analysis of the deposited data

How the results depend on the processing

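Over 21 alternative settings, 598 of 777 single-gene values kept direction and side of the threshold, 69 lost and 68 gained a call, and 42 changed sign, none of them past the threshold in either setting. The replicate block, the fit without a filter and the mean of at least 50 RPM could not change a sign, since they leave each log2 difference as it was. At a mean of at least 50 RPM, members not tested took the values of the fit without a filter, which are thus counted again. The median over the members tested stayed above that of all genes in each setting, by 0.50 to 0.75 on the log2 scale. It was 0.72 with all reads as denominator (all genes 0.09), 0.66 scaled to the median of ratios and 0.92 with distinct intervals counted once (all genes 0.17). Members called higher numbered 25 with all reads as denominator, 25 with the median of ratios, 32 of 37 with distinct intervals, 5 with the last 100 nt left out, 5 by limma-voom, 3 at a mapping quality of at least 10, 1 of 3 at a mean of at least 50 RPM, 4 of 37 without a filter, 3 of 32 with reads of at least 25 nt and 2 of 32 in thinned libraries, which also called 1 lower (*RRP14*). Leaving out 1 library gave 2 to 6 higher and 0 to 1 lower (*RRP14* without *rpa12Δ* replicate 1). Over all genes tested, 591 were higher and 380 lower with all reads as denominator and 479 and 508 with the median of ratios, against 156 and 747, each of 2902 genes. With distinct intervals 845 and 445 of 5270 genes were called. Distinct intervals made up 15.7 to 17.3% of the reads outside the rDNA in *rpa12Δ* and 21.8 to 23.9% in WT. For the member read ends these shares were 86.0 to 94.6% in *rpa12Δ* and 86.8 to 95.8% in WT. The denominator was thus reduced more in *rpa12Δ*, and the part of this in the calls was not tested. A mapping quality of at least 10 gave 70 higher of 2853 genes tested, and a mean of at least 50 gave 114 higher and 280 lower of only 920 genes tested. With the last 100 nt left out 157 of 2902 genes were higher, and with reads of at least 25 nt 118 of 2895. The thinned libraries, which are a single random draw, gave 128 higher of 2900 genes. Leaving out 1 library gave 85 to 169 higher and 440 to 1054 lower.

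For the ratio of the 5′ to the 3′ part, all genes called higher and lower numbered 9 and 7 with a pseudocount of 0.1, 36 and 25 with 10, 1 and 0 at a mapping quality of at least 10, 0 and 0 with distinct intervals, 0 and 3 without the most occupied position, 4 and 2 with the replicate block, and 0 to 13 and 0 to 12 with 1 library left out, against 16 and 10. None of the members was called in any of these.

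The replicate numbers were not used as pairs in the reported fit. Deviations of libraries with the same number correlated at 0.17, 0.01 and -0.02, within the range of -0.23 to 0.24 for libraries with different numbers. So few libraries cannot exclude a pairing. With the replicate block, 12 members were higher and 0 lower, and 216 of all genes higher and 897 lower.

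Signs changed for 11 members, and the cause was not tested. *RRS1* was 0.00705 with a pseudocount of 10, 0.29 with all reads, 0.25 with the median of ratios, 0.46 with distinct intervals, 0.0835 thinned, 0.0715 without the most occupied position and 0.20 without the last 100 nt. *SSF1* was 0.29 with all reads, 0.24 with the median of ratios, 0.59 with distinct intervals and 0.16 thinned. *RPF1* was 0.22 with all reads, 0.20 with the median of ratios, 0.41 with distinct intervals, 0.0246 without the most occupied position and 0.0114 without the last 100 nt. *NUG1* was 0.13 with all reads, 0.0309 with the median of ratios and 0.28 with distinct intervals, and *RRP14*, at -0.45 as reported, was 0.25 with distinct intervals. *NOC3* was -0.0442 at a mapping quality of at least 10, -0.15 with reads of at least 25 nt, -0.26 thinned and -0.0255 without the last 100 nt. *NOP16*, at 0.46 as reported, was -0.19 thinned and *RLP24* was -0.00398 without the last 100 nt.
With 1 library left out the log2 differences ranged as follows: *DRS1* -0.0582 to 0.24, *MAK5* -0.0422 to 0.36, *NOC3* -0.0715 to 0.10, *RLP24* -0.0428 to 0.23, *RPF1* -0.34 to 0.28, *RRS1* -0.22 to 0.17, *SSF1* -0.21 to 0.14 and *YTM1* -0.00858 to 0.36.

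The WT libraries were the shallower ones, since single members had 33 to 585 read ends in *rpa12Δ* libraries and 3 to 125 in WT libraries.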
